A study of Mus musculus with 8 samples.

Results

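The CCR4-NOT complex removes poly(A) tails from mRNAs and is the deadenylase that NANOS2, the male germ cell RNA-binding protein, recruits to its targets. Its mRNAs were followed in an RNA immunoprecipitation (RIP) of DAZL, the germ cell RNA-binding protein that NANOS2 represses. The genes were Cnot1, Cnot2, Cnot3, Cnot4, Cnot6, Cnot6l, Cnot7, Cnot8, Cnot10 and Tob1, and every non-control probe that the array files name for one of them was taken, which gave 28 of 41174 probes, for 10 of 27845 gene names in the files. No probe had to be found through an older name.

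Gonads came from E14.5 mouse embryos of the MCH strain background, with no genetic change or treatment named in the labels, and were pooled in lots of 50. XX and XY lots were immunoprecipitated with an anti-DAZL antibody (IP), and 5% of the starting material was kept as input. There were 4 groups (XX input, XX IP, XY input, XY IP) with 2 arrays each, and labelling used 50 ng of RNA for an input array but 1 ng for an IP array. Because the labels do not say whether replicate arrays came from separate lots, the p-values measure only the spread between these arrays. No array of a control-antibody IP was used, so an enrichment is relative to input only.

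In this complex CNOT1 is the scaffold. CNOT2 and CNOT3 form the NOT module on it, CNOT10 binds its other end, and the catalytic subunits are CNOT7 and CNOT8 (the CAF1 type) and CNOT6 and CNOT6L (the CCR4 type). CNOT4 is a RING-type ubiquitin ligase that is associated less tightly, and TOB1 is an adaptor that links CAF1-type subunits to RNA-bound proteins. DAZL itself is best known for promoting translation of germ cell mRNAs, so a message found with DAZL need not be one that the complex deadenylates.

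The values are normalized log2 signals, in which 0 is the 75th percentile of an array's non-control probes and 1 unit is a doubling. IP arrays were much dimmer than input arrays. Their 75th percentiles were 6.83 to 13.1 scanner units against 77.4 to 173, and 6068 to 9468 probes were well above background against 16713 to 20391. The lowest signal of any probe well above background was therefore 0.03 to 1.02 on the IP arrays but -3.59 to -2.34 on the inputs, and a weak message can be measured in an input and not in an IP. All XX arrays lay on 1 slide and all XY arrays on another, so that slide and sex cannot be told apart, whereas each IP shared a slide with its input. In the inputs Xist was above background in XX only, and Ddx3y, Eif2s3y and Kdm5d in XY only. Of 7 probes for the germ cell markers Ddx4, Dazl, Pou5f1, Dppa3, Sycp3 and Tfap2c, 5 were called higher in the IP in each sex (of these, 4 in XX and 5 in XY were well measured on each IP array), and of 9 haemoglobin probes 3 were called lower in XX and 2 in XY. The part that cell makeup plays in the values below was not tested.

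Probes entered the test if any group had both of its arrays well above background. That held for 22 of the 28 CCR4-NOT probes, and for 18265 probes on the whole array (44.4%). All 22 were above background on both XY inputs and 21 of them on both XX inputs, so that none passed through an IP alone. On both IP arrays, 7 of the 22 (31.8%) were above background in XX and 4 (18.2%) in XY, beside 30.6% and 30.2% of all tested probes. The plot of all 28 probes shows these levels.

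**Figure D1:**
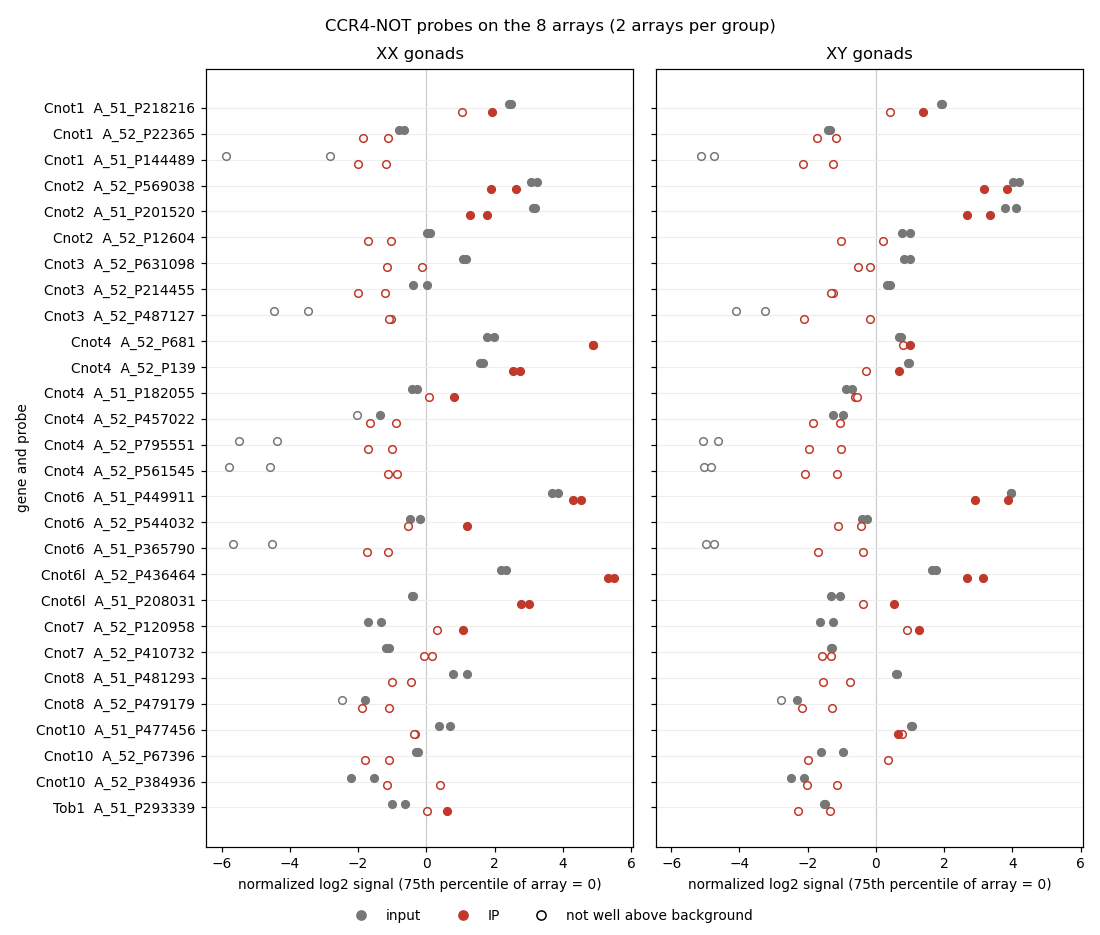
Normalized log2 signal (horizontal axis) of the 28 CCR4-NOT probes on each of the 8 arrays, XX on the left and XY on the right, with inputs in grey and IPs in red. Open circles are signals not well above background, which lie further left on the inputs (-5.89 to -2.82 for the Cnot1 probe A_51_P144489) than on the IPs (-2.15 to -1.19), so that a gap between open circles is no enrichment.

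Recovery of at least 4-fold with DAZL was seen for messages of Cnot6l, Cnot4 and Cnot7, and the other 7 genes did not reach it in either sex. In XX gonads 4 of 22 probes were called higher in the IP (at least 4-fold, adjusted p under 0.05) and 0 were called lower, where 14.1% of all tested probes were called higher and 9.89% lower. In XY gonads 1 probe was called higher and 0 lower, beside backgrounds of 10.2% and 7.67%. The probes called were both Cnot6l probes, 1 Cnot4 probe and 1 Cnot7 probe in XX, and the same Cnot7 probe in XY. On both IP arrays 3 of the 4 were above background in XX, and 0 of the 1 in XY, since the Cnot7 probe was measured on 1 IP array of each sex. The median log2 difference (IP minus input) of the 22 probes was 0.53 in XX and -0.34 in XY, where it was 0.09 and -0.03 over all tested probes. The direction relative to input rests partly on the scaling. Scaling to another percentile moves all probes of an array by the same amount, so it does not change their order. When arrays were scaled to their 50th percentile, the median of all probes moved to -1.92 in XX and -1.90 in XY. In XX 0 CCR4-NOT probes were then higher and 10 lower, beside 1.03% and 47.3% of all tested probes. In XY 0 were higher and 14 lower, beside 1.2% and 45.9%. With quantile normalization 3 were higher and 4 lower in XX, beside 8.1% and 18%. In XY 1 was higher and 2 lower, beside 6.79% and 13.6%.

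Cnot6l, a CCR4-type catalytic subunit, gave the strongest recovery in XX. Its brighter probe (A_52_P436464, mm8 chr5:96317178-96317237, minus strand) was above background on all 8 arrays. In XX it read 2.19 and 2.34 in the inputs and 5.31 and 5.50 in the IPs. In XY it read 1.65 and 1.76 in the inputs and 2.67 and 3.14 in the IPs. The IPs lay above the inputs in both sexes with no overlap, and the XX IPs lay above every other array. Before scaling, the XX signals were 791.6 and 392.5 scanner units in the inputs and 357.1 and 568.5 in the IPs, although the IP arrays as a whole were dimmer.

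By limma, the XX IPs exceeded the XX inputs by 3.14 on the log2 scale (SE 0.39, 8.81-fold, adjusted p = 0.000143, n = 2 arrays per group). The XY difference was 1.20 (SE 0.39, 2.30-fold, adjusted p = 0.027), which passed the adjusted p but not the 4-fold limit. Its sign relative to input rested on the processing. It was -0.66 with 50th percentile scaling, where the median of all tested probes was -1.90. With normexp background correction it was -0.26, where that median was -0.05. The second Cnot6l probe (A_51_P208031, 762 bases away on the same strand, chr5:96316416-96316475) was dimmer and gave the same picture. It read -0.42 and -0.40 in the XX inputs, 2.79 and 3.02 in the XX IPs, -1.32 and -1.06 in the XY inputs, and -0.37 and 0.52 in the XY IPs. Only 1 of its XY IP arrays was above background. Its XX difference was 3.31 (SE 0.42, adjusted p = 0.00016) and its XY difference 1.26 (SE 0.42, adjusted p = 0.0313) by limma.

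Cnot4, the ubiquitin ligase, was recovered in XX but not detectably in XY. Its brightest probe (A_52_P681, chr6:34975365-34975424, minus strand) read 1.79 and 1.99 in the XX inputs and 4.89 and 4.90 in the XX IPs. In XY it read 0.67 and 0.73 in the inputs and 0.79 and 1.01 in the IPs, of which 1 was above background. The XX groups were far apart, and the XY groups differed by less than their own error. The log2 difference was 3.00 for XX (SE 0.38, 8.02-fold, adjusted p = 0.000154) and 0.20 for XY (SE 0.38, adjusted p = 0.693) by limma.

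The other Cnot4 probes did not reach the limits. A_52_P139, which lies toward higher coordinates (chr6:35010259-35010318), read 1.65 and 1.57 in the XX inputs and 2.53 and 2.76 in the XX IPs. It read 0.95 and 0.96 in the XY inputs and -0.28 and 0.68 in the XY IPs, of which 1 was above background. The log2 difference was 1.03 for XX (adjusted p = 0.0614) and -0.75 for XY (adjusted p = 0.173) by limma. A_51_P182055 lies only 912 bases from A_52_P681, yet its differences were 0.77 in XX and 0.20 in XY (adjusted p = 0.130 and 0.714), with 1 XX IP array and no XY IP array above background. A_52_P457022, the probe at the lowest coordinate, was above background on no IP array, so its values of 0.43 and -0.33 set inputs against IP background. The probes A_52_P795551 and A_52_P561545 were above background nowhere. The gene's recovery of at least 4-fold rests on 1 of 4 tested probes.

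Cnot7, a CAF1-type catalytic subunit, passed the limits in both sexes through 1 dim probe. A_52_P120958 (chr8:42008957-42009016) read -1.71 and -1.34 in the XX inputs and 0.32 and 1.08 in the XX IPs. It read -1.63 and -1.25 in the XY inputs and 0.90 and 1.26 in the XY IPs. In each sex 1 of the 2 IP arrays was above background, and the inputs lay below the lowest level that the IP arrays could measure. The log2 difference was 2.22 for XX (SE 0.42, adjusted p = 0.00138) and 2.52 for XY (SE 0.42, adjusted p = 0.000973) by limma. The XX call was lost in 7 of 19 alternatives and the XY call in 4 of 19. With 1 common floor on all arrays the differences shrank to 0.03 and 0.12, and without the second XX IP array the XX difference was 1.85, under the 4-fold limit. The other Cnot7 probe (A_52_P410732, 16733 bases away) was above background on all inputs and on no IP array, and its differences were 1.18 in XX (adjusted p = 0.0222, limma) and -0.14 in XY (adjusted p = 0.786).

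**Figure D2:**
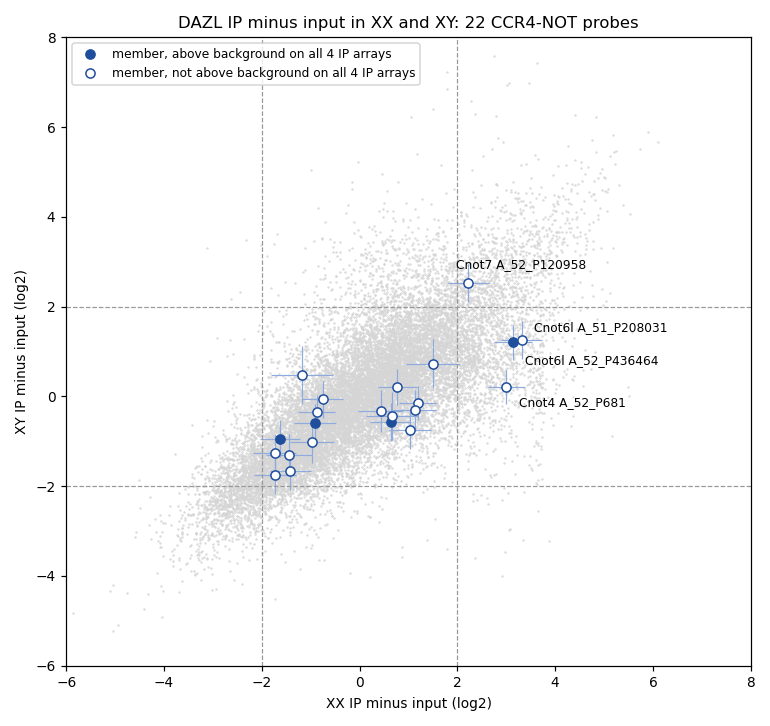
Log2 difference between DAZL IP and input in XX (horizontal) and in XY (vertical) for the 22 tested CCR4-NOT probes (blue, bars 1 SE) over all 18265 tested probes (grey), with dashed lines at the 4-fold limits. Both Cnot6l probes and Cnot4 A_52_P681 lie past 2 in XX but not in XY, and Cnot7 A_52_P120958 lies past 2 in both.

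Without the fold limit, 6 CCR4-NOT probes were higher and 5 lower in the XX IP at an adjusted p under 0.05, beside 25.9% and 22.8% of all tested probes. In XY 3 were higher and 4 lower, beside 20.2% and 20.6%. Of the 6 higher in XX, Cnot7 A_52_P410732 and Cnot10 A_52_P384936 were above background on no IP array. The probes on the lower side were probes of Cnot2, Cnot3 and Cnot8, in numbers near the shares over all tested probes. They were mostly messages that were measured in the input and lost in the background of the IP.

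Cnot2, of the NOT module, had the brightest signals among the probes on the lower side. Its main probe (A_52_P569038, chr10:115889314-115889373) read 3.08 and 3.25 in the XX inputs, 1.89 and 2.62 in the XX IPs, 4.01 and 4.20 in the XY inputs, and 3.17 and 3.85 in the XY IPs. Every IP read below the inputs of its sex, but the differences of -0.91 in XX and -0.59 in XY did not pass (adjusted p = 0.0961 and 0.287, limma). Its neighbour A_51_P201520, 168 bases away, was above background on all 8 arrays and was lower in the XX IP by limma (log2 difference -1.62, SE 0.41, adjusted p = 0.00721). Its XY difference of -0.94 did not pass (adjusted p = 0.0884). The remaining probe, A_52_P12604, was above background on no IP array. Its measured differences were -1.45 for XX and -1.30 for XY (adjusted p = 0.0242 and 0.0446, limma). In XX its inputs lay below the mean level that the IP arrays could measure, and no bound is given. In XY it was at least 1.26-fold lower by a bound that depends on the floor, and the difference was 0 with the highest floor on all arrays. Its sequence is split over 6065 bases of the genome, as for a probe across an exon junction.

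Cnot3, the partner of CNOT2, was above background on all inputs with 2 probes, but on no IP array. A_52_P631098 (chr7:3248495-3248554) read 1.15 and 1.07 in the XX inputs and 1.01 and 0.83 in the XY inputs. Its level was at least 1.37-fold lower in the IP in XX (measured difference -1.74, adjusted p = 0.00644) and at least 1.37-fold lower in XY (-1.27, adjusted p = 0.0357) by limma. A_52_P214455 gave -1.42 (adjusted p = 0.0142) and -1.67 (adjusted p = 0.00796), but the mean of its inputs lay below the mean of the lowest levels that the IP arrays could measure in each sex, so no bound on the fold is given. A bound of this kind sets the input mean against the mean, over the IP arrays, of the lowest signal well above background or the probe's own signal, whichever was higher. It depends on the floor. When all arrays were given the highest of these floors (1.02), the differences of the probes with a bound were -0.09 in XX for Cnot3, -0.08 in XX for Cnot8 and 0 in XY for Cnot2, Cnot3 and Cnot8, and none passed. Another probe, A_52_P487127, was above background on no array.

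Cnot8, the other CAF1-type subunit, read 1.19 and 0.78 in the XX inputs and 0.63 and 0.58 in the XY inputs with A_51_P481293 (chr11:57933838-57933897). No IP array was above background. It was at least 1.26-fold lower in the XX IP (measured difference -1.73, adjusted p = 0.00618) and at least 1.10-fold lower in the XY IP (-1.76, adjusted p = 0.00731) by limma. The main probes of the paralogues Cnot7 and Cnot8 thus had measured differences of opposite sign in both sexes, and neither was measured on both IP arrays of a sex. The other Cnot8 probe, A_52_P479179, was above background on 1 array of each input group and was not tested.

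The scaffold Cnot1 passed the test in neither sex. Its main probe was above background on all inputs but on only 1 IP array of each sex. A_51_P218216 (chr8:98608843-98608902) read 2.41 and 2.48 in the XX inputs, 1.04 and 1.91 in the XX IPs, 1.93 and 1.92 in the XY inputs, and 0.41 and 1.38 in the XY IPs. All IPs lay below the inputs, with differences of -0.97 (adjusted p = 0.0973) and -1.03 (adjusted p = 0.0921) by limma. A second probe, A_52_P22365, gave -0.76 and -0.07 with no IP array above background. The last, A_51_P144489, was above background nowhere.

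Cnot6, the paralogue of Cnot6l, was bright in every group and passed the test in neither sex. A_51_P449911 (chr11:49515071-49515130) read 3.69 and 3.86 in the XX inputs, 4.29 and 4.53 in the XX IPs, 3.97 and 3.95 in the XY inputs, and 2.89 and 3.89 in the XY IPs. Its differences were 0.63 in XX (95% interval -0.30 to 1.56) and -0.57 in XY (-1.50 to 0.36), and neither passed. The dimmer A_52_P544032 gave 0.67 and -0.43, with 1 XX IP array and no XY IP array above background. Its XY value thus sets inputs against IP background. A_51_P365790 was above background nowhere. Cnot6l was not tested against Cnot6.

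Cnot10 and Tob1 were near the limit of what the IP arrays measured. The Cnot10 probe A_51_P477456 read 0.68 and 0.38 in the XX inputs and 1.07 and 1.04 in the XY inputs, with differences of -0.88 and -0.35 (adjusted p = 0.0727 and 0.474, limma), but no XX IP array and 1 XY IP array were above background. A_52_P67396 gave -1.18 and 0.48, and A_52_P384936 gave 1.50 in XX (adjusted p = 0.0385) and 0.73 in XY. Neither of these 2 probes was above background on any IP array, so these values set inputs against IP background and give no direction. The single Tob1 probe (A_51_P293339, chr11:94030732-94030791) read -0.63 and -1.02 in the XX inputs and 0.02 and 0.59 in the XX IPs. In XY it read -1.50 and -1.53 in the inputs and -1.35 and -2.28 in the IPs. Its differences were 1.13 (adjusted p = 0.0511) and -0.30 (adjusted p = 0.610).

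The next comparison asked whether recovery with DAZL differed between the sexes, tested as the difference between the IP-minus-input differences. Cnot4 A_52_P681 was the one CCR4-NOT probe that passed, with a difference of 2.80 (XX minus XY, SE 0.53, 95% interval 1.64 to 3.96, adjusted p = 0.0189, limma). Among all tested probes 2.18% were higher in XX by this test and 1.12% lower, and among the CCR4-NOT probes these were 1 and 0 of 22. At an unadjusted p under 0.05, 6 were higher and 0 lower, beside 10.2% and 6.25% of all tested probes. Of these 6, Cnot7 A_52_P410732 was above background on no IP array and the Tob1 probe on no XY IP array. The call for Cnot4 was lost when any 1 of the 4 input arrays was left out, with adjusted p-values of 0.0744 to 0.116, while the difference itself stayed at 2.70 to 2.90. The XX and XY arrays lay on different slides. The cell makeup of the gonads differed in its markers. The median level of 6 Leydig cell probes was at most 3.24 in the XY inputs and -2.79 to -1.78 in the XX inputs, and that of 5 Sertoli cell probes was 1.57 to 1.60 in the XY inputs and -0.97 to -0.78 in the XX inputs. For 2 ovarian supporting cell probes it was 2.19 to 2.51 in the XX inputs and -1.62 to -1.28 in the XY inputs. On both XX IP arrays 0 of these Leydig, Sertoli and ovarian probes were above background, so their recovery with DAZL could not be compared between the sexes. The test of that difference still called 4 Leydig and 2 Sertoli probes higher in XX and 1 ovarian probe lower. The median of 7 germ cell probes was at least 3.00 in the XX inputs and 1.35 to 1.66 in the XY inputs, and 2 of them were higher and 3 lower in the XX inputs by limma. In the difference in recovery 0 of the 7 passed. The part of cell makeup in the Cnot4 difference was not tested.

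Both Cnot6l probes missed the threshold with similar values, and whether they passed depended on the processing. A_52_P436464 passed with the replicate number as a block (adjusted p = 0.0469), and A_51_P208031 with the 75th percentile over probes above background on all arrays (0.0429). Both passed with the common floor (0.027 and 0.00273) and without the second XY IP array (0.0276 and 0.0188), and their adjusted p ran up to 0.753 over the alternatives. The difference was 1.94 for A_52_P436464 (95% interval 0.74 to 3.13, adjusted p = 0.0798) and 2.05 for A_51_P208031 (0.76 to 3.34, adjusted p = 0.0865) by limma. Of the other Cnot4 probes, A_52_P139 gave 1.78 (0.48 to 3.09, adjusted p = 0.141, limma), with 1 XY IP array above background. A_51_P182055 gave 0.57 with no XY IP array above background. A_52_P457022 was above background on no IP array, so its difference in recovery could not be measured. Tob1 gave 1.43 (0.07 to 2.79, adjusted p = 0.275, limma), with 1 XX IP array and no XY IP array above background. Cnot7 A_52_P410732 gave 1.33 (0.16 to 2.50), and Cnot10 A_52_P67396 the lowest difference, -1.66 (-3.63 to 0.32). Neither was above background on any IP array. The intervals of the remaining Cnot6, Cnot7 and Cnot10 probes included 0. For Cnot1 and Cnot2 all intervals included 0, and those of the main probes ran from -1.36 to 1.47 for Cnot1, with 1 IP array above background in each sex, and from -1.63 to 1.00 for Cnot2. The tested probes of Cnot3 and Cnot8 were above background on no IP array, so a difference in their recovery between the sexes could not be measured.

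**Figure D3:**
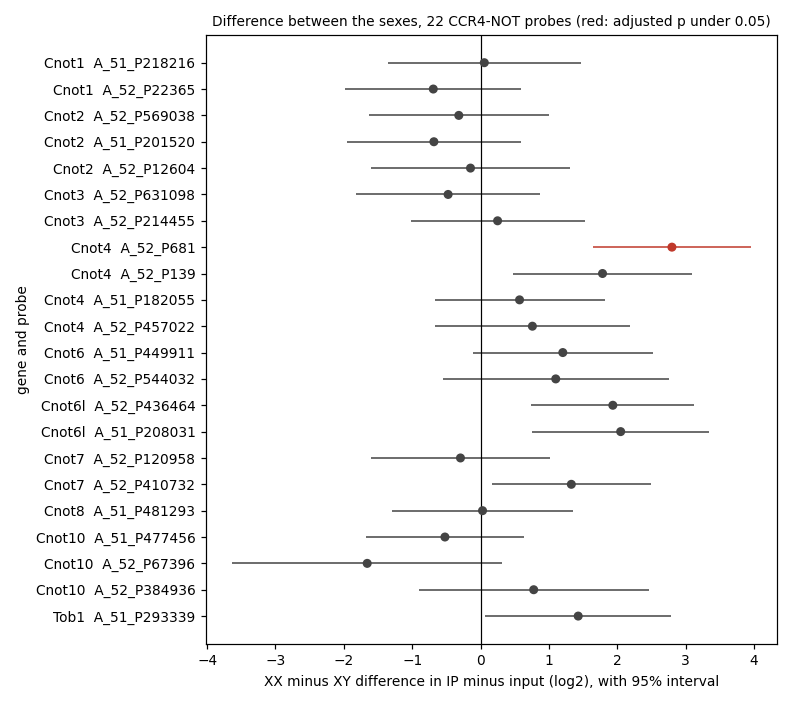
XX minus XY difference in IP minus input (log2, horizontal axis) for the 22 tested CCR4-NOT probes, with points for the estimate and lines for its 95% interval. The interval of Cnot4 A_52_P681 (red) runs from 1.64 to 3.96, and the 2 Cnot6l probes lie next to it at 1.94 and 2.05.

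The inputs gave the level of each message in the whole gonad, in which fewer cells of a type and less RNA per cell cannot be told apart. None of the 22 probes differed between XX and XY inputs at an adjusted p under 0.05 (limma), where 5.87% of all tested probes were higher in XX and 6.1% lower. At an unadjusted p under 0.05, 1 was higher and 1 lower, beside 12.1% and 11.7%. The differences ran from -0.94 to 1.19. The largest was that of Cnot4 A_52_P681 (1.19, 95% interval 0.37 to 2.01, adjusted p = 0.0617, and 0.0361 with the replicate number as a block), and the lowest that of Cnot2 A_52_P569038 (-0.94, -1.87 to -0.01, adjusted p = 0.202). For Cnot6l A_52_P436464 it was 0.56 (-0.28 to 1.41). In 19 of the 22 probes the 2 XX inputs did not overlap the 2 XY inputs, as was so for 76% of all tested probes. A fit on the 4 input arrays alone, which takes its error from those arrays, called 8 probes higher in XX and 3 lower, beside 22.6% and 21.5% of all tested probes. Those 11 held both Cnot6l probes, Cnot4 A_52_P681 and all 3 Cnot2 probes.

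Among the 8 arrays (4 groups of 2), messages with the pattern most like that of 3 members were listed, as a description, from 3375 other genes measured on every array. Cnot6l was followed most closely by Lin9 (Pearson r = 0.9991) and Efr3a (0.9983). Cnot2 was followed by Gstm1 (0.997), Wdr3 (0.9965) and Mrpl45 (0.9889), and Cnot6 by Ehd4 (0.9666), Taf13 (0.9653) and Pelo (0.9538). Cnot6l and Cnot2 A_52_P569038 ran against each other over these arrays (r = -0.82).

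The remaining genes of the mRNA decay pathway were examined for context, by gene lists chosen with earlier results of these data known. Their counts stand beside the backgrounds given above, 14.1% higher and 9.89% lower in XX and 10.2% and 7.67% in XY. Other CCR4-NOT subunits and BTG/TOB proteins (Cnot9, Cnot11, Tob2, Btg1, Btg2, Btg3 and Btg4) had 9 tested probes. In XX 1 was called higher and 0 lower, and in XY 0 were called either way. It was Btg3, an antiproliferative BTG family member, 8.58-fold higher in the XX IP (adjusted p = 0.000252) and 3.85-fold higher in the XY IP (adjusted p = 0.00479) by limma.

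Of 11 probes for other deadenylases, 2 were called higher and 1 lower in XX, and 2 higher and 0 lower in XY. Both IP arrays were above background for 1 of those called higher in XX and for 2 in XY. Noct, a deadenylase-related protein also called nocturnin, gave 4.04 in XX and 2.19 in XY, and was above background on all 8 arrays. Pan2, the catalytic subunit of the other major cytoplasmic deadenylase, gave 5.10 in XY and 4.67 in XX with A_52_P113100, but this probe was above background on no input array, and A_51_P402261 gave 0.86 and -0.24. Parn, the poly(A)-specific ribonuclease, was the probe called lower, at -2.04 in XX (A_51_P485391), but it was above background on no IP array and its exact difference was not measured.

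Decapping and P-body factors had 23 tested probes, of which 5 were called higher and 1 lower in XX, and 7 higher and 0 lower in XY. Both IP arrays measured 4 of those called higher in XX and 7 in XY. Lsm3 and Lsm6, subunits of the LSM ring that binds deadenylated ends, led in both sexes. Lsm3 gave 4.16 in XX and 3.50 in XY, and the Lsm6 probes A_52_P593268 and A_52_P655743 gave 3.13 each in XX and 3.50 and 3.44 in XY. No probe of the list passed the test of the difference between the sexes.

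Proteins that recruit CCR4-NOT to RNA had 20 tested probes, with 8 called higher in XX and 5 in XY and 0 lower in either. On both IP arrays 4 of these 8 were above background in XX and all 5 in XY. Cpeb1, a regulator of cytoplasmic polyadenylation, gave 4.00 and 3.93, and the GW182 family genes Tnrc6c and Tnrc6a (A_51_P509229) gave 2.63 and 2.45 in XX and 3.08 and 2.99 in XY. Nanos2 (A_52_P624495) was above background on all 4 XY arrays, at 0.10 and 0.22 in the inputs and 1.92 and 2.50 in the IPs (2.05, adjusted p = 0.00348, limma). It was above background on no XX array, so its value of 3.66 in XX is one of background signals, and Nanos3, Nanos1 and Zfp36 in XX were likewise not measured on both IP arrays. Dnd1, the NANOS2 cofactor, was high in XY (3.61 and 3.93 in the inputs, 3.91 and 4.71 in the IPs) and gave 0.16 in XX and 0.54 in XY.

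A list of poly(A) binding proteins and polymerases, to which Dazl had been added, had 13 tested probes, with 3 called higher in each sex and 0 lower. Both Dazl probes were among the 3 in each sex. The others were Papolg in XX and Papola in XY, which was above background on no XY IP array. Dazl itself gave 3.09 (A_51_P246060) and 2.69 (A_52_P271166) in XX and 2.93 and 2.06 in XY. Papolg, a poly(A) polymerase, gave 3.66 in XX and 1.98 in XY. In the difference between the sexes, 2 Pabpn1 probes passed as lower in XX, but neither was measured on both XX IP arrays. Over these 5 lists the medians of IP minus input ran from -0.35 to 1.22 in XX and from 0.28 to 1.61 in XY.

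The called CCR4-NOT probes were then followed through other ways of processing the same scans. Both Cnot6l probes and Cnot4 A_52_P681 stayed above 2.5 in XX with quantile normalization or with the 75th percentile taken over well-measured probes. They fell to between 0.86 and 1.30 with 50th percentile scaling or normexp background correction, where none reached 4-fold. With the common floor A_51_P208031 of Cnot6l gave 1.88, also under 4-fold. In XX the sign of these probes was positive in every setting tried. In XY the Cnot6l probes ranged from -0.66 to 1.71. Both turned negative with 50th percentile scaling, and A_52_P436464 also with normexp. Scaling to the 50th percentile moved the median of all tested probes to -1.92 in XX and -1.90 in XY. Cnot7 A_52_P120958 gave 1.89 in XX with quantile normalization and 1.80 with the 75th percentile over well-measured probes, while in XY it stayed past 4-fold at 2.35 and 2.19. Scaling to the 50th percentile left 0.22 (XX) and 0.65 (XY), and normexp correction left 0.84 and 0.39.

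**Figure D4:**
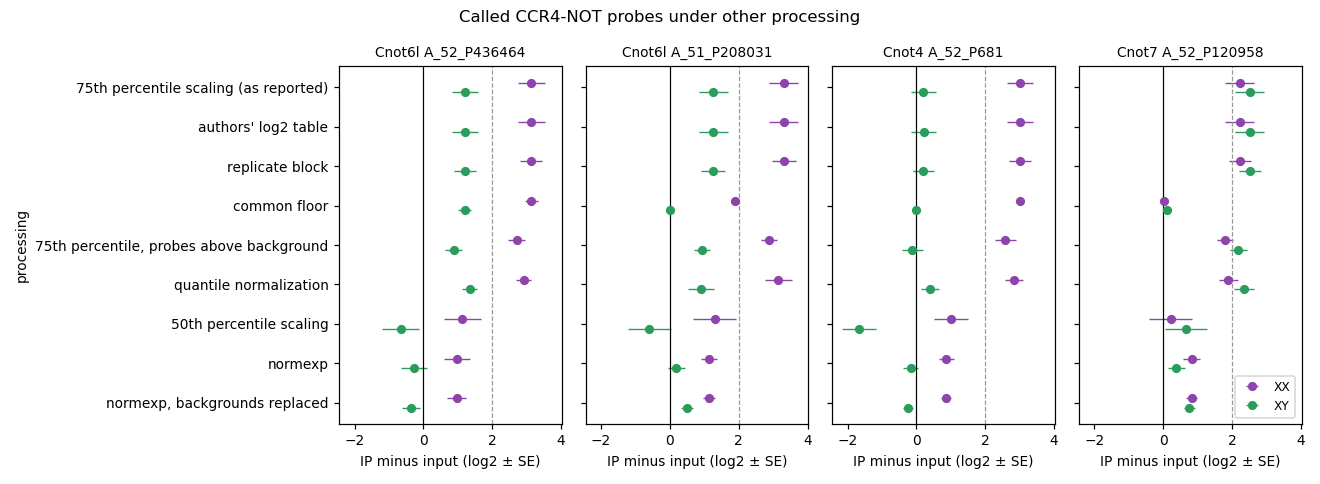
Log2 difference between IP and input (points, bars 1 SE) of the 4 called CCR4-NOT probes under 9 ways of processing, for XX (purple) and XY (green), with a dashed line at 2, the 4-fold limit. Cnot6l and Cnot4 lie to the right of 0 in XX throughout and right of 2 in most settings, while Cnot7 drops to 0.03 (XX) and 0.12 (XY) under a common floor.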

How the data were processed

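Data were 8 one-colour Agilent whole mouse genome arrays. The deposited files hold processed signal intensity per spot, with a background already subtracted (Feature Extraction 9.5.3.1 in the headers, 9.5 per the submitters' processing notes), mean and local background intensity, and flags. The authors' deposited table holds log2 values scaled to the 75th percentile. Here outlier spots were dropped, signals under 1 set to 1, spots of a probe averaged, and log2 values centred on each array's 75th percentile. Of 41174 probes 73 lacked a value on some array, and 18265 were tested. Group means were fitted to all 8 arrays with limma 3.58.1 (R 4.3.3), two-sided, with Benjamini-Hochberg adjustment over all tested probes. IP contrasts also required 4-fold; the others had no fold minimum. Intervals are 95% and cover the spread between arrays. The number of arrays limits the precision.

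Members and gene lists were chosen with earlier results of these data known. Every member probe was described, main probe first (highest mean over 8 arrays). Of the lists, called probes were named where all 4 arrays of the sex concerned exceeded background, at most 3 per contrast, besides Nanos2, Dazl and Dnd1; Pan2, Parn, Nanos1, Nanos3, Pabpn1, Papola and Zfp36 were added after their values were seen. Positions are mm8 as in the files. No annotation of that build was used, so exons are not given, and probe sequences were not used here. Alternatives comprised scaling, background correction, floor, filter, the authors' table, replicate block, arrays fitted, and leaving out each array. Averaging spots on the log2 scale was added after the results were seen. The fit was also run on simulated arrays with the XX input means in every group, apart from probes raised in XX IP. These held no dim IP arrays and were not rescaled, so that run cannot show how the calls depend on either. One gene that the likeness rule names is not reported here.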

Additional observations from a re-analysis of the deposited data

Results flagged for a closer look

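Cnot4 (probe A_52_P681) stood out because its recovery with DAZL differed between XX and XY gonads by a test of that difference. The IP-minus-input difference was 3.00 in XX and 0.20 in XY on the log2 scale, and XX minus XY was 2.80 (adjusted p = 0.0189, limma). Over the alternatives the difference ran from 1.03 to 3.00 and the adjusted p from 0.000505 to 0.635. It was lost in 8 of 18 of them. The neighbouring probe A_51_P182055, 912 bases away, gave 0.57 with no XY IP array above background. No group had enough arrays for a test of single outlying arrays.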

How the results depend on the processing

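The numbers of CCR4-NOT probes called were 4 in XX, 1 in XY, 1 between the sexes and 0 among inputs. In the same order, they were 10, 14, 0 and 0 with 50th percentile scaling. With quantile normalization they were 7, 3, 2 and 1 (3 higher and 4 lower in XX, 1 and 2 in XY). The shares of all tested probes in these IP contrasts are given above. The 2 between the sexes were higher, beside 2.69%, and the 1 among inputs lower, beside 3.73%. The 75th percentile over probes above background on all arrays gave 6, 2, 2 and 1. In XX 3 were higher and 3 lower, beside 9.15% and 15.6% of all tested probes. In XY it was 1 and 1, beside 6.88% and 12%. The 2 between the sexes were higher, beside 1.92%, and the 1 among inputs lower, beside 5.16%. Normexp gave 1, 0, 0 and 1, and with outlying local backgrounds replaced 1, 2, 0 and 1. Neither normexp setting called a probe higher in the IP, and the IP calls were Cnot2 probes, lower. Of all tested probes 11.4% were lower in XX under each normexp setting, and 10.6% in XY with backgrounds replaced. A common floor gave 2, 0, 4 and 2, all of them higher. Of all tested probes 5.81%, 3.93%, 3.6% and 3.02% were then called higher, in the same order. Without the filter they were 9, 6, 0 and 0 of 28, beside 56.8% (XX) and 54.4% (XY) of all probes called higher. Of the 9 and of the 6, 5 were CCR4-NOT probes above background on no array. With only the 4 member probes above background on all arrays they were 1, 0, 0 and 0. Of all such probes 24.7% were called higher in XX and 20% in XY. The authors' table and log2 averaging of spots (chosen after seeing the data) gave 4, 1, 1 and 0. Fitting only the groups compared gave 4, 1 and, for the inputs, 11. Leaving out 1 array at a time changed the probes called in each comparison. Some were then called lower in XX, in XY and between the sexes. The XX differences ran from 3.05 to 3.23 for Cnot6l A_52_P436464 and from 2.90 to 3.11 for Cnot4 A_52_P681. For Cnot7 A_52_P120958 they ran from 1.85 to 2.60. The XX minus XY difference of Cnot4 A_52_P681 ran from 2.69 to 2.91. Normexp called 0.378% of all probes higher in XX where the main scaling called 14.1%, and 50th percentile scaling called 1.03% higher and 47.3% lower. In all these fits no value called by the limits changed sign. Values called in neither fit did change sign, in 21 of 88 under normexp and 17 of 88 with 50th percentile scaling. The cause was not tested.

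With the replicate number as a block the numbers were 4, 1, 2 and 1, all higher. Of all tested probes 14.1%, 10.2%, 3.26% and 7.33% were then called higher, in the same order. Cnot6l A_52_P436464 then passed for the difference between the sexes (1.94, adjusted p = 0.0469, limma). Cnot4 A_52_P681 passed among the inputs (1.19, adjusted p = 0.0361). Same-numbered arrays deviated together with r = 0.0718 (IP and input, XX), 0.0903 (IP and input, XY), 0.278 (inputs of both sexes) and 0.439 (IPs of both sexes). The labels tie no number to a shared lot or day, and with 2 numbers the correlations do not settle whether they pair the arrays. Slide as a block could not be fitted beside sex.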
